A study of Pinus armandii with 6 samples.

Results

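The genes described here are those of fatty acid beta-oxidation, the peroxisome and the glyoxylate cycle in the kernel of the pine nut of Pinus armandii, the Chinese white pine. A gene entered the set when its deposited annotation placed it in the KEGG pathway for fatty acid degradation, for the peroxisome or for glyoxylate and dicarboxylate metabolism, and when its best database hit came from a spruce, a pine or a yew (Picea, Pinus or Taxus). The rule reads annotation alone. It gave 175 of 65117 unigenes, a unigene being a transcript sequence assembled from the reads. Of these, 73 lay in fatty acid degradation, 63 in the peroxisome pathway and 66 in glyoxylate metabolism, and 27 in more than 1 of them. The best hit was from Picea for 111, Pinus for 35 and Taxus for 29. By their KEGG orthology numbers 36 were enzymes of beta-oxidation, 17 of the glyoxylate cycle, 18 were proteins of peroxisome import and membrane, 4 were catalases, and 100 were other enzymes of these pathways.

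Cones were collected at 2 harvests, the close of August and the close of September. RNA of the kernel was sequenced in 3 libraries of each month, with no treatment and no genotype named in the labels. The 3 are labelled as biological replicates, but separate trees or cones are not stated, so the p-values below rest on the spread among libraries, which may be partly technical. A kernel holds the embryo together with the megagametophyte that stores its reserves, and in whole kernels fewer cells of a type and less RNA per cell cannot be told apart.

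Oil seeds break down stored triacylglycerol in a specialised peroxisome, the glyoxysome. A lipase releases fatty acids from the oil body, an acyl-CoA synthetase activates them, and beta-oxidation shortens them in rounds of oxidation by acyl-CoA oxidase, hydration and dehydrogenation by a multifunctional protein, and cleavage by 3-ketoacyl-CoA thiolase, which releases acetyl-CoA. The glyoxylate cycle joins acetyl-CoA units into dicarboxylic acids through isocitrate lyase and malate synthase, the enzymes particular to this route, so that sugar can be made from oil. Catalase removes the hydrogen peroxide that acyl-CoA oxidase makes. Peroxisomal enzymes are made in the cytosol and imported by peroxins, the PEX proteins. The set is best known from germinating seeds, in which these enzymes carry the seedling until it can photosynthesise.

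Total estimated counts ran from 12849649 to 17379628 per library. Between libraries of a month the correlation of log2(CPM + 1) across unigenes was 0.987 to 0.992, and between months 0.886 to 0.897. CPM is the count scaled to the library's counts in tested unigenes and its TMM factor. Storage protein unigenes (vicilin, legumin and 2S albumin) summed to 875 to 929 CPM in August and 1423 to 1539 in September, with 4 of 6 tested higher and 1 lower. Oleosins, the coat proteins of oil bodies, summed to 2153 to 2361 CPM and 830.4 to 946. Late embryogenesis abundant unigenes summed to 1589 to 1806 and 1321 to 1372 CPM, with 4 of 10 higher and 4 lower. Chlorophyll a/b-binding unigenes, which mark green tissue, summed to 67.2 to 104 and 81.0 to 105 CPM, with 2 of 3 tested higher. Cellulose synthase unigenes, which mark wall-forming tissue such as a seed coat, summed to 318 to 354 and 992 to 1008 CPM, with 8 of 10 tested higher and 1 lower, while laccases summed to 51.4 to 66.2 and 24.1 to 113 with neither of 2 tested passing. Beside these marker counts, 35.4% of all tested unigenes were higher in September and 32.5% lower, by the test described below. The part of tissue make-up in the differences below was not tested. August library 2 stood apart in 1 respect: 1847 unigenes whose best hit was an oak or hornbeam (Quercus or Carpinus) summed to 6197 CPM in it, against 855 and 884 in the other August libraries and 1043 to 1140 in September. The choice of conifer hits left those unigenes out of the set. Without August library 2, 86 of the 93 members that passed the test still passed, 7 no longer did, and 5 further members passed, with no change of sign among the 93.

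Of the 175 members, 142 had enough reads to be tested, and the 33 others had 1 to 58 counts over all 6 libraries, with a median of 11. September was higher than August for 48 members, lower for 45, and 49 did not pass (edgeR quasi-likelihood test, Benjamini-Hochberg adjusted over 23216 tested unigenes, threshold 0.05). Among all tested unigenes 67.8% passed, 35.4% as higher and 32.5% as lower, so the share of members that passed, 65.5%, was near that background. Changes of 2-fold or more that passed were 19 higher and 14 lower of 142, beside 24.3% and 12.4% of all tested unigenes. The median absolute log2 fold change was 0.454 in members and 0.695 in all tested unigenes. The 3 libraries of 1 month lay wholly above those of the other for 52 members that were higher in September and 54 that were lower, against 37.8% and 35.0% of all tested unigenes. The background moved with the fit: 64.6%, 62.6% and 64.8% of tested unigenes passed without August library 1, 2 or 3, and 63.2%, 62.7% and 61.6% without September library 1, 2 or 3. It was 68.7% where unigenes of the same best hit were summed, and 44.5% of 35708 unigenes in DESeq2.

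Counts by class stood as follows, beside 35.4% higher and 32.5% lower among all tested unigenes. Beta-oxidation had 8 members higher, 12 lower and 7 not passing of 27 tested, with a median log2 fold change of -0.14, and all tested unigenes had a median of 0.03. The glyoxylate cycle had 4 higher, 1 lower and 5 not passing of 10 tested, with a median of 0.17. Among the 18 peroxisome import and membrane proteins, 10 of them peroxins, none was higher, 12 were lower and 6 did not pass, with a median of -0.40. Of 3 tested catalases 2 were higher and 1 was lower. The other enzymes had 34 higher, 19 lower and 31 not passing of 84 tested, with a median of 0.18. These counts are a description of annotated lists, and no test compared one class with another.

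**Figure D1:**
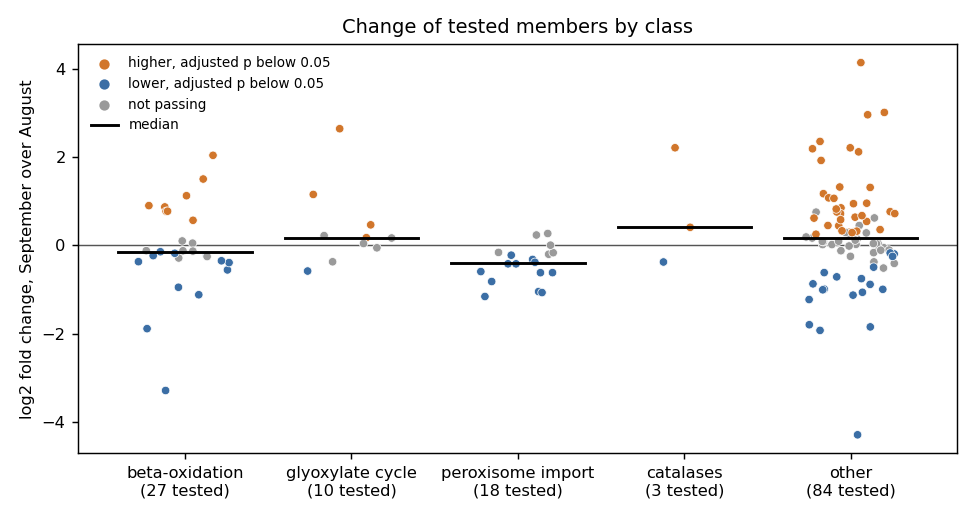
Log2 fold change, September against August, for each of the 142 tested members (points) in 5 classes, with the class median as a line and the colour showing whether a member passed as higher or lower. Points on both sides of 0 stand in beta-oxidation and among the other enzymes, the peroxisome import points that passed all lie below 0, and the highest glyoxylate cycle point is the isocitrate lyase at 2.65.

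Isocitrate lyase, which splits isocitrate into glyoxylate and succinate, had the largest rise of the glyoxylate cycle members tested. It was represented by 2 unigenes whose best hits were different entries for isocitrate lyase of the same species, Pinus taeda. The fit that summed unigenes of the same best hit therefore left them apart. Whether they are separate genes, or divide reads between them, was not tested. Unigene0037351 had 215, 216 and 204 CPM in August and 1468, 1196 and 1322 in September. Every September library was above every August library, and the mean rose 6.28-fold from 211 ± 6.80 to 1329 ± 136 CPM (SD, n = 3), a difference past the test (log2 fold change 2.65, SE 0.0799, adjusted p = 1.5e-08). Its partner Unigene0062588, had 1525, 1399 and 1308 CPM in August and 2043, 1909.8 and 1905 in September. These groups did not overlap either, and the rise was 1.38-fold (log2 fold change 0.47, SE 0.0675, adjusted p = 1.6e-04). On the authors' FPKM scale, which divides by length and so permits levels of different unigenes to be compared, Unigene0062588 averaged 309 and 427 FPKM and Unigene0037351 95.0 and 595. On this scale the order of the pair was thus reversed between the months. In CPM Unigene0062588 stayed above Unigene0037351 in both. The reversal therefore depends on the lengths implied by counts and FPKM, 4535 bases for Unigene0062588 and 2215 for Unigene0037351. Unigene0037351 made up 22.4%, 24.0% and 24.2% of isocitrate lyase FPKM in August and 59.5%, 56.2% and 58.7% in September.

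Malate synthase, which joins glyoxylate to acetyl-CoA, passed the test in neither of its 2 tested unigenes. Its main unigene, Unigene0072014, had 1795, 1704 and 1635 CPM in August and 1869, 1648 and 1783 in September. The months overlapped, and the difference did not pass (log2 fold change 0.05, SE 0.0646, adjusted p = 0.551). A lesser malate synthase, Unigene0072013, averaged 25.4 ± 3.62 CPM in August and 19.7 ± 4.15 in September (log2 fold change -0.37, adjusted p = 0.0681), and Unigene0072015, which shares its best hit, had too few reads for a test. Summed over unigenes, isocitrate lyase stood at 431, 402 and 380.5 FPKM in August and 1101, 959.6 and 1004 in September, and malate synthase at 464, 439.6 and 429 and 477, 428 and 458. The ratio of isocitrate lyase to malate synthase was 0.910 ± 0.0206 in August and 2.25 ± 0.0599 in September (SD, n = 3). Malate synthase was therefore a little above isocitrate lyase in each August library and well below it in each September library.

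**Figure D2:**
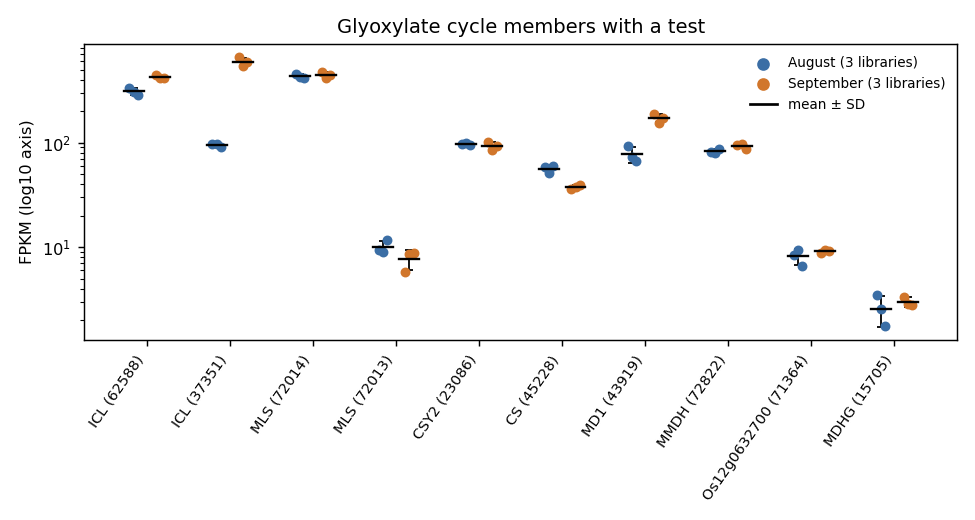
Level per library in the authors' FPKM, on a log axis, for the 10 tested glyoxylate cycle members, August (blue) and September (orange) side by side, with the mean as a line and the SD of 3 libraries as an error bar. Numbers in brackets are the last digits of the unigene name. Both isocitrate lyases and malate dehydrogenase MD1 lie higher in September without overlap, while the months overlap in the main malate synthase.

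Among the remaining steps of the cycle, malate dehydrogenase MD1 (Unigene0043919), whose orthology number is that of the cytosolic enzyme, had 165, 129 and 118 CPM in August and 335, 276 and 312 in September. It was higher in all 3 September libraries and rose 2.23-fold (log2 fold change 1.16, SE 0.118, adjusted p = 1.6e-05). The mitochondrial malate dehydrogenase MMDH (Unigene0072822) averaged 122 ± 6.21 and 138 ± 6.87 CPM (log2 fold change 0.18, adjusted p = 0.0309), a call lost when any of 4 single libraries was left out, with adjusted p from 0.0818 to 0.142 in those fits, and it was chosen after its values were seen. A glyoxysomal malate dehydrogenase by its symbol, MDHG Unigene0015705, was at 4.05 and 4.74 CPM and did not pass. Unigene0071364, which shares its best hit with an untested MDHG unigene, did not pass either (log2 fold change 0.17, adjusted p = 0.279). Citrate synthase CS (Unigene0045228), which condenses acetyl-CoA with oxaloacetate, had 133, 119 and 136 CPM in August and 82.8, 85.2 and 91.6 in September. It fell to 0.670 of its August mean (log2 fold change -0.58, SE 0.0710, adjusted p = 5.5e-05), with no overlap. CSY2 (Unigene0023086), which in Arabidopsis is the peroxisomal citrate synthase, averaged 252 ± 5.99 and 243 ± 21.0 CPM and did not pass (adjusted p = 0.517). The 3 aconitase members had at most 37 counts each and were not tested. Counting every unigene of the class, the glyoxylate cycle summed to 4257, 3994 and 3825 CPM in August and 6242, 5529 and 5841 in September, a ratio of 1.46. The steps did not share that rise. Their ratios were 2.02 for isocitrate lyase, 1.66 for malate dehydrogenase, 1.03 for malate synthase, 0.865 for citrate synthase and 0.772 for the low aconitases. The malate dehydrogenase sum holds cytosolic MD1 and mitochondrial MMDH beside the glyoxysomal forms, and the citrate synthase sum adds CS to CSY2. The class sum is thus not one of peroxisomal forms alone.

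Beta-oxidation members passed in both directions, and their sum fell slightly. The 36 members together gave 5079.9, 4976 and 4991 CPM in August and 4745, 4578 and 4572 in September, a ratio of 0.923. All 3 September sums lay below the August sums. Within the synthetase, oxidase, thiolase and isomerase steps, unigenes passed in both directions (67.8% of all tested unigenes passed, 35.4% as higher and 32.5% as lower). The core enzymes are described in the order of the pathway, and the acyl-CoA synthetases and oxidases below were chosen after their values were seen, so as to cover each step.

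Long-chain acyl-CoA synthetases activate fatty acids before oxidation. All 5 members passed, 2 as higher and 3 as lower. LACS6 is a peroxisomal form in Arabidopsis, and its 2 unigenes here parted: Unigene0050876 averaged 145 ± 8.47 CPM in August and 111 ± 8.73 in September (log2 fold change -0.39, adjusted p = 9.7e-04), and Unigene0050875 averaged 72.0 ± 7.55 and 123 ± 16.6 (log2 fold change 0.77, adjusted p = 1.2e-04). The share of Unigene0050875 in LACS6 FPKM was 32.4%, 36.5% and 36.3% in August and 60.1%, 50.5% and 53.4% in September, so that the pair exchanged rank. LACS9, known in Arabidopsis from the plastid envelope, was lower in both of its unigenes, and LACS4 (Unigene0041970) was higher, at 49.3 and 84.6 CPM (log2 fold change 0.78, adjusted p = 2.4e-05). Summed over all 5, LACS9 and LACS4 included, the step stood at 676 ± 19.4 CPM in August and 637 ± 14.4 in September (SD, n = 3). It is thus not a sum of peroxisomal forms alone.

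Acyl-CoA oxidases carry out the first oxidation, and plant forms differ in the chain length they prefer. ACX2 (Unigene0073410), the long-chain form in Arabidopsis, had 734, 684 and 722 CPM in August and 579, 627 and 628 in September, a small fall without overlap (log2 fold change -0.22, SE 0.0576, adjusted p = 0.00609). ACX4 (Unigene0007341), the short-chain form in Arabidopsis, had 117, 116 and 115 CPM in August and 225, 216 and 212 in September. It rose 1.87-fold (log2 fold change 0.91, SE 0.0537, adjusted p = 4.6e-07), again without overlap. ACX3 (Unigene0002881), a medium-chain form, averaged 169.6 ± 10.6 and 150.1 ± 6.18 CPM (log2 fold change -0.18, adjusted p = 0.0317), a call lost when any of 4 single libraries was left out, with adjusted p from 0.0542 to 0.118 in those fits. ACX1 (Unigene0043703) was low, at 1.93 and 4.20 CPM (log2 fold change 1.13, adjusted p = 0.00273). Of the FPKM of these 4 conifer-hit oxidases, ACX2 made up 75.0% ± 0.584 in August and 63.3% ± 1.72 in September, and ACX4 15.02% ± 0.404 and 27.7% ± 1.43 (SD, n = 3). The shares depend on the choice of conifer hits: with ACX1 Unigene0052105, whose best hit is from Nelumbo and which averaged 145 ± 5.41 and 141 ± 3.61 FPKM, ACX2 made up 53.11% to 54.40% in the August libraries and 43.75% to 46.98% in the September libraries. On the same base that ACX1 made up 28.12% to 28.81% and 26.88% to 28.65%, above ACX4 at 10.49% to 11.04% and 19.19% to 20.93%. The 4 conifer-hit oxidases summed to 1001 ± 34.6 and 983 ± 19.1 CPM.

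The multifunctional protein, which holds the hydratase and dehydrogenase activities, did not pass in either unigene. MFP (Unigene0048908) averaged 636 ± 15.2 and 582 ± 17.7 CPM (adjusted p = 0.0517) and MFP2 (Unigene0074882) 161 ± 13.3 and 173 ± 7.95 (adjusted p = 0.219). The thiolase PED1 (Unigene0064391), which in Arabidopsis is needed for growth of the seedling on its stored oil, had the most reads of the class, 1884, 1857 and 1790.3 CPM in August and 1752, 1663 and 1599 in September. The months did not overlap, but the fall was small (log2 fold change -0.14, SE 0.0567, adjusted p = 0.0473) and no longer passed without August library 2, September library 2 or September library 3 (adjusted p = 0.0564, 0.103 and 0.195). Another PED1 unigene, Unigene0042649, shares that best hit, and its reads could be divided with it. Its values were 39.8, 36.4 and 34.2 CPM in August and 11.6, 10.3 and 7.80 in September, lower in all 3 (log2 fold change -1.89, SE 0.142, adjusted p = 2.1e-06). Summed as 1 gene, the pair changed by -0.14 on the log2 scale (adjusted p = 0.0466). KAT1 (Unigene0064393), also a thiolase by its orthology number, went the other way, from 15.8, 10.5 and 11.1 CPM in August to 54.8, 51.0 and 49.1 in September. It rose 4.15-fold with no overlap (log2 fold change 2.05, SE 0.143, adjusted p = 1.3e-06). Per length PED1 Unigene0064391 nevertheless held 80.6% ± 1.29 of thiolase FPKM in August and 78.1% ± 1.21 in September.

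**Figure D3:**
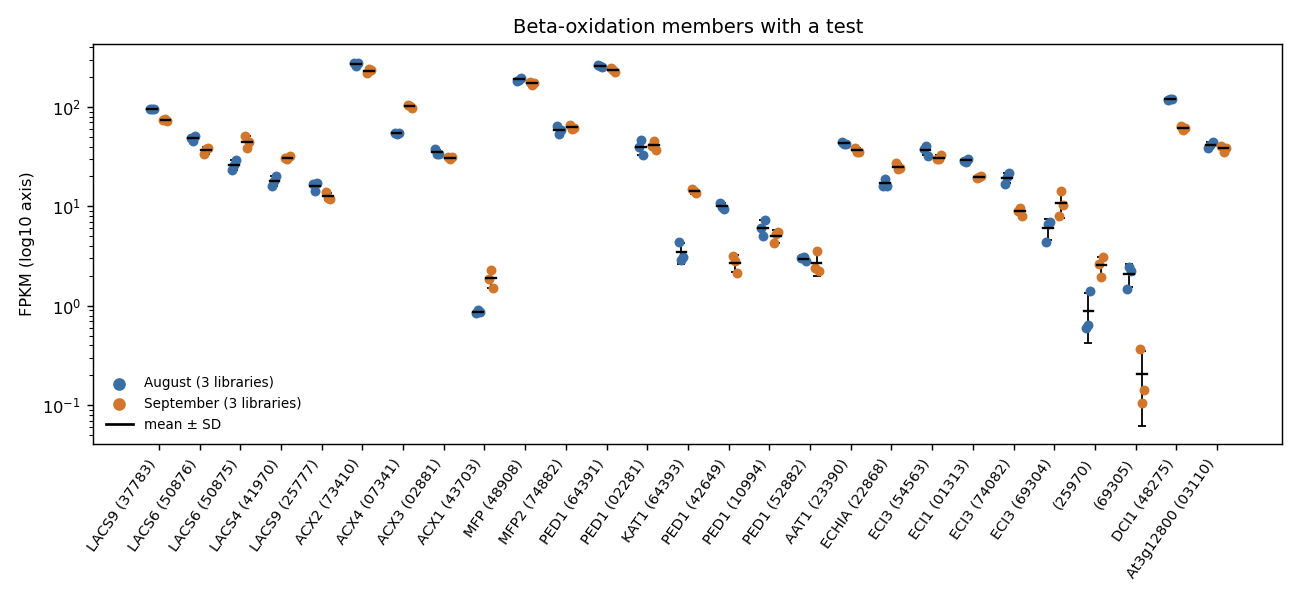
Level per library in the authors' FPKM, on a log axis, for the 27 tested beta-oxidation members ordered by step, August (blue) and September (orange) side by side, with the mean as a line and the SD of 3 libraries as an error bar. The thiolase KAT1 and the oxidase ACX4 lie higher in September and PED1 Unigene0042649 and ECI3 Unigene0074082 lower, and the most abundant thiolase, PED1 Unigene0064391, differs by a log2 fold change of -0.14.

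Auxiliary enzymes move double bonds of unsaturated fatty acids into a position that beta-oxidation can use, and pine seed oil is rich in such acids. The dienoyl-CoA isomerase DCI1 (Unigene0048275), chosen after its values were seen, had 151, 154 and 151 CPM in August and 82.5, 74.4 and 79.6 in September, near 0.518 of the August mean (log2 fold change -0.95, SE 0.0605, adjusted p = 7.4e-07). Of 11 enoyl-CoA isomerase members 6 were tested, 2 higher, 3 lower and 1 not passing. ECI3 Unigene0074082 had 21.6, 25.2 and 27.5 CPM in August and 11.6, 12.2 and 10.4 in September. It was lower in every September library (log2 fold change -1.12, SE 0.127, adjusted p = 3.4e-05). ECI3 Unigene0069304, by contrast, was at 14.2 and 26.0 CPM (log2 fold change 0.88, adjusted p = 0.00558). It shares its best hit with the low isomerase Unigene0069305, which fell from 2.28 to 0.227 CPM (log2 fold change -3.29, adjusted p = 2.1e-04), and the sum of the 3 unigenes of that hit was higher by a log2 change of 0.69 (adjusted p = 0.0166). A group of 7 isomerase members shares 1 best hit, and summed with the 2 other unigenes of that hit they were lower, by a log2 change of -0.31 (adjusted p = 0.00204). The enoyl-CoA hydratase ECHIA rose (log2 fold change 0.57, adjusted p = 8.1e-04), the acetyl-CoA acetyltransferase AAT1 (Unigene0023390) fell (log2 fold change -0.23, adjusted p = 0.00614), and the dienoyl-CoA reductase At3g12800 did not pass (adjusted p = 0.240).

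Peroxisome import and membrane proteins fell or did not pass. All 18 members were tested, 12 fell (32.5% of all tested unigenes did), none rose and 6 did not pass, and the groups did not overlap in 13, all lower in September (35.0% of all tested unigenes did so). At an unadjusted p under 0.05, a threshold close to the adjusted one here, the count higher was 0 too. DESeq2 called 0 higher and 10 lower, beside 8485 higher and 7420 lower of 35708 unigenes in that fit. Summed over the class, the libraries held 1254, 1281 and 1317 CPM in August and 915, 911 and 936 in September, a ratio of 0.717. By step, 6 of 10 peroxins, 5 of 7 PMP22 and MPV17 family members and the 1 cofactor carrier fell. Of the 18, 3 passed with a fall of 2-fold or more (12.4% of all tested unigenes did so). Only 9 of the 18 members carried a gene ontology term for the peroxisome, glyoxysome or microbody. Leaving out 1 library at a time, the count lower ran from 10 to 13, and PEX19-2 alone came out higher, in the fit without September library 1 (log2 fold change 0.35, adjusted p = 0.0301).

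The docking complex on the peroxisome membrane is made of PEX13 and PEX14. PEX13 Unigene0065543 had 229.7, 250.3 and 263 CPM in August and 113, 116 and 126 in September. Its September values were all below its August values, at 0.477 of the August mean (log2 fold change -1.07, SE 0.0692, adjusted p = 8.1e-07). The other PEX13, Unigene0073894, with a different best hit, averaged 166 ± 4.80 and 110.0 ± 2.75 CPM (log2 fold change -0.59, adjusted p = 9.1e-06). PEX14 (Unigene0049253), the peroxin with the most reads, had 267, 258 and 265 CPM in August and 227, 219 and 233 in September. It fell less than PEX13 (log2 fold change -0.22, SE 0.0522, adjusted p = 0.00379), though no test compared the pair. The soluble receptors differed in call: PEX7, which carries proteins with the amino-terminal signal, fell (log2 fold change -0.42, adjusted p = 0.00257), and PEX5, which binds the carboxy-terminal signal, averaged 149 ± 16.3 and 133 ± 1.43 CPM and did not pass (adjusted p = 0.0844). Whether these receptors differ from each other was not tested.

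**Figure D4:**
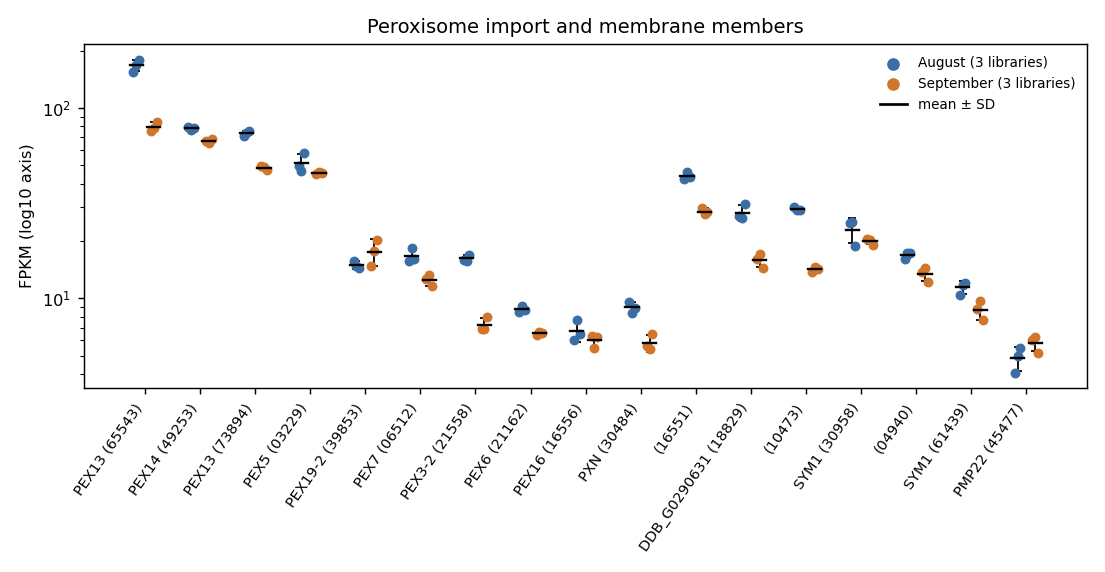
Level per library in the authors' FPKM, on a log axis, for 17 peroxisome import and membrane members, August (blue) and September (orange) side by side, with the mean as a line and the SD of 3 libraries as an error bar. PEX13, PEX3-2 and an MPV17-family unigene lie lower in September without overlap, and PEX16 and PEX19-2 overlap.

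PEX3 and PEX19 bring membrane proteins to the peroxisome. PEX3-2 (Unigene0021558) had 29.3, 29.0 and 31.0 CPM in August and 12.8, 12.6 and 14.7 in September, the largest fall among the peroxins (log2 fold change -1.16, SE 0.105, adjusted p = 7.2e-06). PEX19-2 averaged 18.9 ± 0.884 and 22.3 ± 3.53 CPM and did not pass (adjusted p = 0.123), nor did PEX16, which acts with them in mammalian cells (adjusted p = 0.334). PEX6, part of the ATPase that recycles the receptor, fell (log2 fold change -0.42, adjusted p = 7.3e-04). In the PMP22 and MPV17 family of small membrane proteins 5 of 7 fell. The member with the symbol PMP22 itself (Unigene0045477) was not among them and did not pass (adjusted p = 0.255). The MPV17-family unigene Unigene0010473, without a symbol, had 47.2, 45.8 and 45.4 CPM in August and 21.7, 22.8 and 22.5 in September and was lower in every library (log2 fold change -1.05, SE 0.0775, adjusted p = 1.9e-06). Unigene0010473 shares its best hit with Unigene0018829, another of the 5 (log2 fold change -0.82, adjusted p = 4.9e-05). Summed as 1 gene, they changed by -0.92 on the log2 scale (adjusted p = 1.6e-06). Of the 5, Unigene0004940 (log2 fold change -0.32) and the SYM1 unigene Unigene0061439 (log2 fold change -0.38) lost their call when single libraries were left out. The cofactor carrier PXN (Unigene0030484), which in Arabidopsis brings NAD into the peroxisome, fell from 16.2 to 10.6 CPM (log2 fold change -0.62, adjusted p = 0.00192). Members of this class other than PEX13 Unigene0065543, PEX14, PEX3-2 and Unigene0010473 were named after their values were seen.

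The tested catalases moved in both directions, and the most abundant of them fell. CAT2 (Unigene0034227) had 3681, 3451 and 3868 CPM in August and 2961, 2676 and 2848 in September. No September library reached the lowest August library, and the mean fell from 3667 ± 209 to 2828 ± 144 CPM (SD, n = 3), which passed (log2 fold change -0.37, SE 0.0649, adjusted p = 5.4e-04). CAT3 (Unigene0055517) went the opposite way, with 695, 535 and 606 CPM in August and 814, 758 and 873 in September. Its groups did not overlap (log2 fold change 0.41, SE 0.0925, adjusted p = 0.00271). The catalase with the symbol OsI_09857 (Unigene0000811), whose best hit is from Taxus, had 19.2, 23.5 and 24.0 CPM in August and 72.3, 95.1 and 143 in September. It rose 4.66-fold without overlap (log2 fold change 2.22, SE 0.220, adjusted p = 1.3e-05). CAT1 (Unigene0055519) had no counts in August and 39 in September, too few for the test, and was at least 13.0-fold higher against a floor of 3 counts over the August libraries. It shares its best hit with CAT3, and the length implied by its counts and FPKM is 470 bases, against 3255 for CAT3. Of catalase FPKM, CAT2 made up 83.9%, 86.3% and 86.2% in August and 77.6%, 76.6% and 74.8% in September. The class as a whole summed to 4395, 4009.9 and 4499 CPM in August and 3848, 3531 and 3865 in September, and the months did not overlap.

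**Figure D5:**
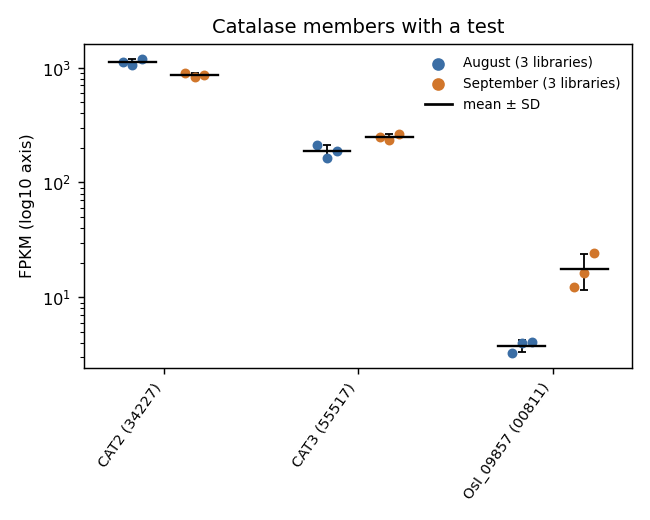
Level per library in the authors' FPKM, on a log axis, for the 3 tested catalases, August (blue) and September (orange) side by side, with the mean as a line and the SD of 3 libraries as an error bar. CAT2 lies lower and CAT3 and OsI_09857 lie higher in September, and CAT2 stays the highest in both months.

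Among the other enzymes, those of photorespiration and one-carbon metabolism were the largest group, with 17 members higher, 7 lower and 9 not passing of 33 tested (35.4% of all tested unigenes were higher and 32.5% lower). They summed to 3642, 3421 and 3511 CPM in August and 4687, 4481 and 4532 in September. GLDP1 (Unigene0024417), the glycine decarboxylase P subunit, had 542, 497 and 507 CPM in August and 1216, 1118 and 1163 in September. Its rise was 2.26-fold without overlap (log2 fold change 1.18, SE 0.0592, adjusted p = 1.8e-07). In seeds this complex also supplies one-carbon units outside photorespiration. Further enzymes of the group, chosen after their values were seen, were higher too: the glycolate oxidase GLO1 (Unigene0070696, log2 fold change 0.72, adjusted p = 5.4e-05), the cytosolic glutamine synthetase GS1-2 (Unigene0069617, log2 fold change 1.33, adjusted p = 3.6e-07) and the cytosolic serine hydroxymethyltransferase SHM4 (Unigene0008140, log2 fold change 0.76, adjusted p = 3.7e-05). Lower were the glycerate kinase GLYK (log2 fold change -0.71, adjusted p = 2.0e-06), the formate dehydrogenase FDH1 (log2 fold change -0.87, adjusted p = 2.9e-05) and the hydroxypyruvate reductase HPR-A (log2 fold change -0.49, adjusted p = 5.3e-05). The families of SHM4 and GLO1 were mixed. SHM7 (adjusted p = 1.8e-06) and GLO4 (adjusted p = 0.0479, lost in some fits that left out 1 library) were lower. Both SHM1 unigenes and GLO3 were higher, and SHM3 did not pass. The chloroplast-encoded large subunit of Rubisco, rbcL (Unigene0069725), had 17.5, 22.9 and 32.3 CPM in August and 1.23, 1.38 and 1.02 in September, a fall in all libraries (log2 fold change -4.30, SE 0.269, adjusted p = 6.5e-07), while the small subunit RBCS (Unigene0006435) averaged 0.689 and 3.23 CPM and was higher (log2 fold change 2.20, adjusted p = 0.00138).

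Of 20 tested alcohol dehydrogenases 5 were higher, 6 lower and 9 did not pass (35.4% of all tested unigenes were higher and 32.5% lower). The alcohol dehydrogenase-like At5g24760 Unigene0007656 had 1.75, 2.37 and 1.91 CPM in August and 30.8, 32.8 and 43.4 in September, 17.8-fold higher and well apart (log2 fold change 4.15, SE 0.188, adjusted p = 1.1e-07), whereas At5g24760 Unigene0007655, with another best hit, averaged 28.8 ± 3.21 and 13.8 ± 1.23 CPM (log2 fold change -1.06, adjusted p = 3.4e-05). ADH Unigene0071746 fell (log2 fold change -1.93, adjusted p = 7.0e-08). All 5 tested aldehyde dehydrogenases passed, 2 as higher and 3 as lower (67.8% of all tested unigenes passed). ALDH2B7 Unigene0032961, of the mitochondrial family that oxidises acetaldehyde, had 5.68, 8.01 and 6.73 CPM in August and 56.5, 50.8 and 51.9 in September (log2 fold change 2.97, SE 0.125, adjusted p = 7.9e-08). It shares its best hit with 4 other members, among them Unigene0002118 (log2 fold change -0.62, adjusted p = 1.4e-05) and Unigene0000160 (log2 fold change 0.64, adjusted p = 1.2e-05), and their sum as 1 gene had a log2 change of -0.04 and did not pass (adjusted p = 0.560). Phytanoyl-CoA dioxygenases, which in mammals start alpha-oxidation of branched fatty acids, fell in both unigenes, PAHX (log2 fold change -1.13, adjusted p = 3.2e-07) and PHYH (log2 fold change -1.01, adjusted p = 2.0e-05). The NADP isocitrate dehydrogenase IDH1 rose (log2 fold change 0.55, adjusted p = 4.2e-05). The acyl-activating enzyme AAE7 (Unigene0001404), which in Arabidopsis activates acetate for the glyoxylate cycle, fell (log2 fold change -0.75, adjusted p = 1.0e-04). Superoxide dismutases SODCP (log2 fold change 0.29, adjusted p = 0.00316) and SODB (log2 fold change 0.33, adjusted p = 0.0123) rose, the latter only while August library 1 and September library 1 were both kept (adjusted p = 0.0586 and 0.0519 without them), and the remaining member of that family, FSD3, averaged 15.7 and 19.1 CPM and did not pass (adjusted p = 0.0512). All but the first At5g24760 and the first ALDH2B7 of this paragraph were chosen after their values were seen.

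On the FPKM scale, CAT2 had the highest level of all members, at 994 FPKM over the 6 libraries. Malate synthase Unigene0072014 followed at 439.7, isocitrate lyase Unigene0062588 at 368 and Unigene0037351 at 345, and then ACX2 at 252 and PED1 at 247. The 10 highest members held 44.0% ± 0.578 of member FPKM in August and 48.8% ± 0.511 in September (SD, n = 3). Only 41 of the 175 carried a gene ontology term for the peroxisome, glyoxysome or microbody, 15 of them in beta-oxidation, 9 in import, 6 in the glyoxylate cycle and 1 among the catalases. Among the 37 of these that were tested, 11 were higher and 11 lower, with a median absolute log2 fold change of 0.284. The 105 tested members without such a term had 37 higher and 34 lower and a median of 0.554. Over all tested unigenes 35.4% were higher and 32.5% lower, with a median of 0.695. No test compared members with and without the term. The best hit of 141 members read unknown or hypothetical, so enzyme names rest on the symbol and orthology columns. In 66 members the best hit was shared with another member.

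Taking every unigene of the 3 pathways, whatever its best hit, gave 325, of which 172 were tested, 63 higher and 51 lower. The 150 without a spruce, pine or yew hit had 30 tested, 15 higher and 6 lower, beside 35.4% and 32.5% of all tested unigenes. The following were chosen after their values were seen. The aconitase ACO3 Unigene0011069, which converts citrate to isocitrate, averaged 732 ± 35.5 CPM in August and 762 ± 41.6 in September and did not pass (adjusted p = 0.430), whereas the ACO3 with a Pinus hit was among those too low to test. The acyl-CoA oxidase ACX1 Unigene0052105 was at 371 ± 14.1 and 364 ± 11.5 CPM (adjusted p = 0.651), far above the ACX1 with a Picea hit on the FPKM scale too (0.872 and 1.90 FPKM). A pair of malate dehydrogenases with the orthology number of the mitochondrial enzyme rose, At3g47520 Unigene0001341 (log2 fold change 0.47, adjusted p = 2.0e-04) and MMDH Unigene0061228 (log2 fold change 0.43, adjusted p = 2.0e-04). The xanthine dehydrogenase XDH1 (Unigene0023934), an enzyme of purine breakdown, fell (log2 fold change -0.87, adjusted p = 2.6e-06). Of 3 tested superoxide dismutases SOD Unigene0049972 (log2 fold change -0.46, adjusted p = 2.0e-04) and SODCC1 (log2 fold change -0.28, adjusted p = 0.0467) fell and SODCC rose (log2 fold change 0.82, adjusted p = 0.0104). Of the 4 tested import genes that this adds, the peroxin PEX2 (Unigene0022683) fell (log2 fold change -0.77, adjusted p = 3.8e-04) and 3 did not pass, among them PEX10 (Unigene0053582, adjusted p = 0.108). With the 18 conifer-hit members counted again, that made 13 of 22 lower (32.5% of all tested unigenes were) and none higher. It also held 62 unigenes with oak or hornbeam hits, which summed to 245 CPM in August library 2, 0.0624 and 0.445 in the other August libraries and 8.59 to 9.40 in September.

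The steps before and after this set were read from a list of related genes. The triacylglycerol lipase SDP1 (Unigene0014646), which releases fatty acids from the oil body, had 78.9, 85.8 and 95.4 CPM in August and 34.1, 33.3 and 32.6 in September. It was lower in every September library, at 0.385 of the August mean (log2 fold change -1.38, SE 0.0830, adjusted p = 5.1e-07). Phosphoenolpyruvate carboxykinase takes the carbon of the glyoxylate cycle on towards sugar. Its main unigene PCKA Unigene0070710 fell slightly, from 927 ± 32.8 to 788 ± 43.7 CPM (log2 fold change -0.24, adjusted p = 0.00554), and the much lower PCKA Unigene0045776 rose from 0.116 to 5.75 CPM (log2 fold change 5.59, adjusted p = 1.4e-05). Fructose-1,6-bisphosphatase, a later step on that route, was not tested: FBP1 Unigene0058715 had 158 counts, all in August library 2, and the other unigene so described carries the symbol and orthology number of a proteasome subunit. Of the 2 tested oleosins Unigene0045277 fell (log2 fold change -1.45, adjusted p = 1.0e-07) and Unigene0075045 did not pass (adjusted p = 0.104). Caleosin is an oil body peroxygenase, and its main unigene SOP1 Unigene0069222 averaged 297 ± 26.1 and 303 ± 10.1 CPM and did not pass (log2 fold change 0.03, adjusted p = 0.723). SOP1 Unigene0069223, which shares that best hit, rose from 11.4 to 58.8 CPM (log2 fold change 2.36, adjusted p = 7.9e-08). Of the 16 unigenes that matched this list, the proteasome subunit among them, 12 were tested, 2 higher, 3 lower and 7 not passing. The shares over all tested unigenes were 35.4% higher and 32.5% lower. No sequences of the unigenes were used here, so none is shown.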

How the data were processed

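The submitters' processing notes name fastp for read trimming and RSEM for quantification, without versions. No source used here names the assembler, annotation programs, library kit or strandedness. The authors deposited an estimated count for each unigene and library, which RSEM gives without normalization. Beside it stands the FPKM of the same unigene, which the authors computed, per the file headers. Counts were rounded, since 8 of 390702 were not whole. FPKM was used for levels, sums and shares over unigenes and in the plots of levels, and no test was run on it. Depth is given by the total counts, 12849649 to 17379628 per library, and tested unigenes held 98.6% to 99.7% of them.

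Counts were tested in R 4.3.3 with edgeR 4.0.16, whose quasi-likelihood F test compared 3 September with 3 August libraries, with TMM factors (0.993 to 1.01), filterByExpr by month (minimum count 10, minimum total 15) and Benjamini-Hochberg adjustment over 23216 unigenes at 0.05. Adjusted p-values are from it, and standard errors were derived from F. For a unigene at 0 in August, the fold was set against 3 counts over the 3 libraries, or 0.0663 CPM, which covers counting error only. Classes were set from KEGG orthology numbers. Implied lengths are counts divided by FPKM and depth. Libraries of a month were more unlike than sampling noise allows, at 4.76 to 7.62 chi-square units per unigene.

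Named members were every isocitrate lyase, malate synthase and catalase, the member with most CPM in each class, and in each class the 3 or fewer passing members with the largest change, provided their mean reached 5 CPM. Every other unigene named in the text was chosen after its values were seen. Members and lists were chosen with earlier results of these data known. Alternatives were RLE factors, no filter, DESeq2 1.42.0, a replicate block, each library left out, unigenes of the same best hit summed, TPM for the order of levels, and any best hit. The list for fungal tissue matched no unigene in 10 genera searched, and the Rubisco small chain description matched none. The related genes and tissue markers were found by symbol or description text. A few annotated genes counted in these lists are not reported here by name.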

Additional observations from a re-analysis of the deposited data

How the results depend on the processing

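Of 164 recomputed counts, 159 stayed within 1.5 times the value reported. The exceptions were small counts. Glyoxylate cycle members higher were 4, and 7 with any best hit. The 1 glyoxylate member lower became 2 without a filter, 2 with the replicate block and 2 without August library 3. In peroxisome import 0 were higher, and 1 was without September library 1. Leaving out 1 library at a time, members higher ran from 45 to 47 and lower from 39 to 49. By class, the ranges were 8 to 9 higher and 10 to 13 lower in beta-oxidation, 3 to 4 and 1 to 2 in the glyoxylate cycle, 0 to 1 and 10 to 13 in import, 2 to 3 and 1 in each fit among catalases, and 30 to 33 and 16 to 20 among the others. Over all tested unigenes they were 7885 to 8493 higher and 7199 to 7660 lower.

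Of the 93 members that passed, 91 still passed with RLE factors, 81 with DESeq2 and 87 without a filter, none with a change of sign, and 78 passed in every fit that left out a library. Of 231 recomputed values of the 21 named members with a test, 223 kept direction and side of the threshold. PED1 Unigene0064391 no longer passed with RLE factors (log2 fold change -0.14, adjusted p = 0.0529). Malate synthase Unigene0072013 passed without a filter (-0.41, adjusted p = 0.0269) and with the replicate block (-0.38, adjusted p = 0.0300). The sign changed in 2 values: malate synthase Unigene0072014 was -0.015 without August library 3 (0.094 at most, without September library 2), against 0.05, and ALDH2B7 Unigene0032961 was -0.040 when summed with its 4 sharers of a best hit, against 2.97. The cause of these changes was not tested, except that the sum by its construction adds the reads of more abundant unigenes. Ranks by TPM differed from those by FPKM for 8 of 100 other enzymes and 0 members elsewhere.

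Replicate numbers are shared by the months, but same-numbered libraries deviated together only weakly (correlations 0.092, 0.043 and 0.030), and August library 3 correlated more with September library 2 than with its own number, so the numbers were not taken as pairs. With the replicate block, 48 members were higher and 45 lower, 92 of the 93 still passed, and 66.5% of all tested unigenes passed, against 30.5% without a filter and 67.8% with RLE factors. Depth limits the 33 untested members, which had at most 58 counts.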
